A study of Rattus norvegicus with 2 samples.

Results

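The 10 genes described here encode the peptides, receptors and binding protein of a pair of related brain systems, the PACAP and VIP system and the corticotropin-releasing hormone (CRH) system. They were chosen by name, as the gene names of the array files give them, and comprise 10 of the 15560 genes that could be measured. The ligands are PACAP (Adcyap1), VIP (Vip), CRH (Crh) and urocortin 1 (Ucn). The receptors are PAC1 (Adcyap1r1), VPAC1 (Vipr1), VPAC2 (Vipr2), CRHR1 (Crhr1) and CRHR2 (Crhr2), and the CRH-binding protein is Crhbp. These genes were covered by 14 probes and 23 spots per array, of which 13 probes were spotted once and 1 Crh probe was spotted 10 times.

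RNA came from the nucleus tractus solitarius (NTS), cut from the dorsal medulla under a microscope, in Wistar Kyoto (WKY) rats, an inbred strain used as the normotensive control of hypertensive rats. The groups were females and males, all 9 weeks old and with no treatment named in the labels. Equal amounts of RNA from 5 rats, 100 ng each, were pooled within each sex, and 1 single-colour Agilent array was used for each pool. The sexes are as labelled, and the Y-linked gene Sry, at -0.062 (female minus male, log2) against a spot SD of 0.15, did not separate the pools. Among X-linked genes known to escape X inactivation, picked after their values were seen, Eif2s3 differed by 0.65, Kdm5c by 0.57 and Ddx3x by 0.39 towards the female pool. The series title places the comparison among sex differences in brain centres of cardiovascular control. With 1 array per sex no difference has a replicate check, no test was made, and the spread between rats is not known.

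PACAP and VIP are close relatives of the secretin family, and both bind VPAC1 and VPAC2, while PAC1 prefers PACAP. CRH starts the hormonal stress response from the hypothalamus and also acts as a transmitter elsewhere in the brain. Urocortin 1 binds CRHR1 and CRHR2, CRH prefers CRHR1, and the binding protein captures CRH and urocortin 1 outside the cell. All 5 receptors couple mainly to the stimulatory G protein, which raises cAMP. The NTS receives baroreceptor and other visceral afferents in the brainstem, and fibres and receptors of both peptide systems have been described there. A peptide delivered by an afferent fibre leaves its messenger RNA in the distant cell body, so the arrays measured peptide transcripts made by cells within the dissected tissue.

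Each probe is a 60-base oligonucleotide. The following 5 are shown to give the stretch of transcript read by the probes of PACAP, CRHR1 and the binding protein, and by 1 of the 3 PAC1 probes and 1 of the 2 CRHR2 probes. The gene values of PAC1 and CRHR2 also draw on their other probes. Positions are those of the array files on the rn4 build, and each probe is written 5′ to 3′ in lower case. The interval the files give for Adcyap1 is longer than its 60-base probe. That of Crhr2 probe 2, given further below, is shorter than its probe.
Adcyap1, chr9_random:1057315-1057800 (+), bases 519 to 578 of its RefSeq transcript: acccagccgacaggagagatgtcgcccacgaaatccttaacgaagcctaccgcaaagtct
Adcyap1r1 probe 3, chr4:84253950-84254009 (+), bases 1732 to 1791: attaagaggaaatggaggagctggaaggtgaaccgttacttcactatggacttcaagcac
Crhr1, chr10:93353354-93353413 (+), bases 1249 to 1308: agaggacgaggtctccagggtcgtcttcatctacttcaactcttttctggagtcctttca
Crhr2 probe 1, chr4:83851526-83851585 (-), bases 688 to 747: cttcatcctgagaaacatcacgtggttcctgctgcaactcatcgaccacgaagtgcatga
Crhbp, chr2:25802015-25802074 (-), bases 932 to 991: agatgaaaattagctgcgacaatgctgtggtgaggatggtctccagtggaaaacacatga
The files list 4 RefSeq transcripts for each Adcyap1r1 probe and for the Crhr1 probe, so these probes do not separate splice variants of the receptors. The Crhbp, Crhr1, Vip, Ucn, Adcyap1, Vipr1 and Vipr2 values each rest on 1 probe and 1 spot.

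The upstream sequences of Vip, Ucn and Crhbp are shown because cAMP is the main second messenger of both systems and Vip is a textbook target of the cAMP response element. Ucn alone of the 9 matched genes held the full element, and Vip and Crhbp had the largest differences between the pools. Each line gives the 250 bases before the transcription start from the RefSeq promoter table of the GRCr8 build. Capitals mark the element TGACGTCA in Ucn, its 5-letter core TGACG in Vip, and that core read on the other strand, CGTCA, in Crhbp.
Vip, chr1:44470230-44470479 (+): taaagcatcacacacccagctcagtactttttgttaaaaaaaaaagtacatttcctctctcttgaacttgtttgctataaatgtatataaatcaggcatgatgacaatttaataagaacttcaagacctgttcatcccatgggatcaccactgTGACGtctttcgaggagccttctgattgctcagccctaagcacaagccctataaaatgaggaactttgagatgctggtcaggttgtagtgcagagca
Ucn, chr6:30957836-30958085 (+): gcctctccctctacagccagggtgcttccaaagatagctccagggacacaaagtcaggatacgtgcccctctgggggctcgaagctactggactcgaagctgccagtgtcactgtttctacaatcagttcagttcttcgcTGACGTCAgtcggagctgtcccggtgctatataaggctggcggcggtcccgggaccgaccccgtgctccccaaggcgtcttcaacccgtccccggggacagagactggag
Crhbp, chr2:28439447-28439696 (-): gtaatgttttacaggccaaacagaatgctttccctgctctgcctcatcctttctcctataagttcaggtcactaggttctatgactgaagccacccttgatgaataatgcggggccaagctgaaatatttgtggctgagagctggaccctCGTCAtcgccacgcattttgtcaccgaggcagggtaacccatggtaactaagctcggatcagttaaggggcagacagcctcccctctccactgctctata
Counting back from the transcription start, the core of Vip lay at -97 to -93, the full element of Ucn at -110 to -103, and the core of Crhbp at -100 to -96. Promoters were matched for 9 of the 10 genes, with Crh not matched. On either strand, the full element occurred in 1 of the 9, Ucn, and in 1.70% of 27457 rat promoters over the same 250 bases. The core, which every full element also contains, occurred in 5 of the 9 (Vip, Vipr1, Ucn, Crhr2 and Crhbp) and in 19.0% of all promoters. The oestrogen response element, GGTCA and TGACC separated by 3 bases, was found in 0 of the 9 and in 0.0219% of all promoters, and the glucocorticoid response element, AGAACA and TGTTCT separated by 3 bases, in 0 of the 9 and in 0.00364%. Such matches are descriptions of letters and show neither binding nor its absence.

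Every one of the 23 spots was well above background on both arrays, and none was saturated. Signals below are the processed signal of each array in the scanner's units with its own Feature Extraction error, an estimate that ranged from 10% to 15.9% of the signal over these spots. Differences are female minus male on the log2 scale, after each array was set relative to the 75th percentile of its rat spots, 3380 in the female and 3441 in the male pool. A spot SD is the spread of the difference among spots of the same probe elsewhere on the array. It was 0.27 for the dimmest class of probes, then 0.15, 0.089 and 0.069 for the brightest. It covers technical error within the arrays and leaves out differences between rats and between labelling reactions.

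None of the 10 genes differed 2-fold between the pools. Over the 15560 genes, a 2-fold excess in the female pool was met by 0.109% and in the male pool by 0.424%. A 1.5-fold excess in the male pool was shown by 2 of the 10, Crhbp and Vip, and by 1.57% of all genes. A 1.5-fold excess in the female pool was met by 0.893% of all genes and by 0 of the 10. In direction, 3 genes were higher in the female pool (Crhr1, Crh and Vipr1) and 7 in the male pool, with a median of -0.091. Of all 15560 genes, 45.7% were on the female side. All genes had a median of -0.014, with an interquartile range of -0.11 to 0.079, and Vip and Crhbp lay far outside that range.

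The direction of each gene is relative to the bulk of the array. Under scaling by the spike-in probes, RNAs added at labelling, every difference shifted by 0.67 towards the female pool, and the median over all genes was 0.66. Under that scaling Adcyap1, Adcyap1r1, Vipr2, Ucn and Crhr2 were higher in the female pool, while Crhbp at -0.10 and Vip at -0.049 still lay on the male side. The shift applies alike to every list of genes below, so their directions are also relative to the bulk.

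**Figure D1:**
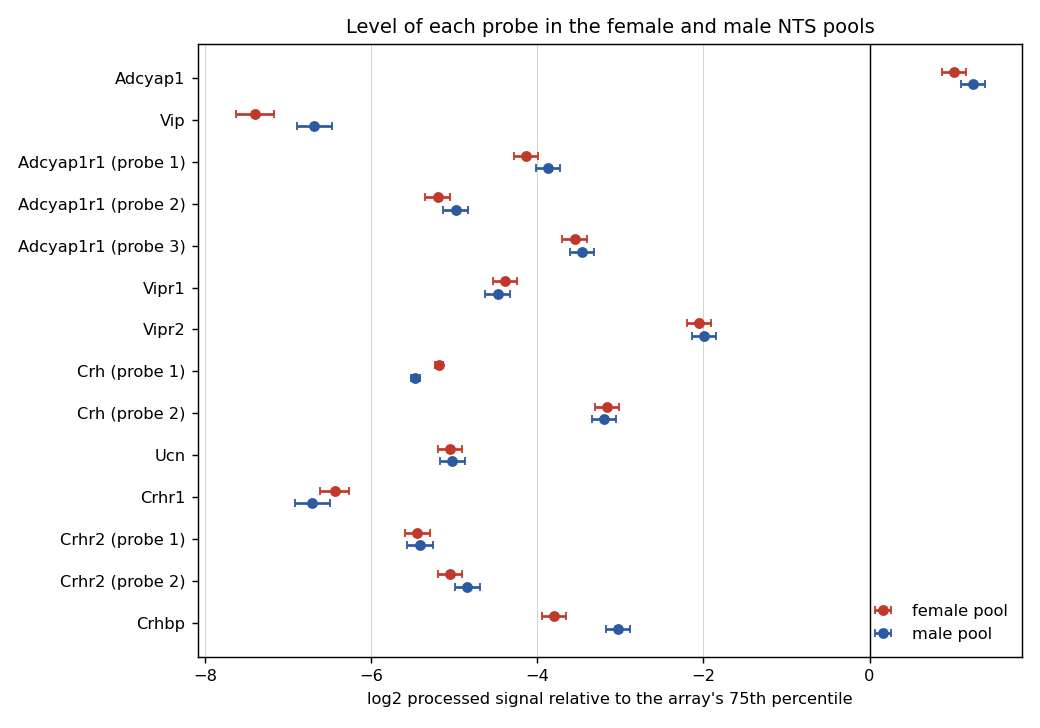
Level of each of the 14 probes in the female and the male NTS pool, as log2 processed signal relative to the array's 75th percentile (x axis). Points are arrays, bars are Feature Extraction's own error of the signal, and the repeated Crh probe is the mean of 9 spots. The largest gaps between the pools are those of Crhbp and Vip, with the female point on the low side.

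The CRH-binding protein showed the largest difference of the group. Crhbp had a signal of 242 ± 24.3 in the female and 420 ± 42.2 in the male pool (Feature Extraction error). The difference was -0.77, or 1.71-fold higher in the male pool, which is 8.63 spot SDs at that brightness and 3.76 times the Feature Extraction error of the difference. As a protein that captures CRH and urocortin 1, Crhbp is the only member that is neither a ligand nor a receptor. Of 4957 single-spot probes in the same brightness class, 0.464% lay as far to the male side, and 0.803% of all genes had a difference as low or lower.

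The Crhbp value rests on 1 spot in the first column of the array, so its surroundings were measured. Spots in that column, 376 in all, had a median difference of 0.011, and 0.798% of them were as low as Crhbp, against 0.744% of spots in column 4 and beyond. The 63 measured spots within 6 rows and 6 columns had a median of -0.020, with 5% to 95% of them between -0.41 and 0.35. The Crhbp spot was thus lower than most of its neighbours, and it carried no outlier flag.

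Among the ligands, PACAP was on a probe of the brightest class, where the spot SD is smallest. Adcyap1 had a signal of 6851 ± 685 in the female and 8161 ± 816 in the male pool. The difference was -0.23, which is 3.28 spot SDs and 1.11 times the Feature Extraction error. Of the genes measured, 9.96% had a difference as low or lower. PACAP is made by neurons of several brainstem nuclei, and in bulk tissue fewer cells of a type and less RNA per cell cannot be told apart.

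VIP, the neighbour of PACAP in sequence and receptors, gave a signal close to background. Vip had a processed signal of 19.96 ± 3.18 in the female and 33.4 ± 4.81 in the male pool, a difference of -0.72 or 1.65-fold higher in the male pool. That difference is 2.66 spot SDs and 2.32 times the Feature Extraction error, and 4.24% of 3182 single-spot probes of the class lay as far to the male side. The raw signal before correction was 68.7 in the female and 81.1 in the male pool, over local backgrounds of 34.5 and 35 units, so the processed value is what remained after most of the raw signal had been subtracted. With normexp background correction in place of Feature Extraction's, the difference was -0.22. That correction was run with an offset of 50 units added to every signal. Such an offset by itself shrinks differences of dim spots, here and in the normexp values given below.

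The Vip spot also lay in 1 of 5 bands of array rows, out of 20, in which many dim spots were brighter on the male array. The bands were picked on these arrays, where the share of dim spots 2-fold brighter on the male array exceeded 3 times the median band's. An excess of male-bright dim spots inside them was built into that choice, so the next comparison is not a separate measure of position. Inside these bands, 10.03% of 957 spots of Vip's brightness class that were well above background on both arrays were as low as Vip, against 1.70% of 2761 outside. The bands held 25.5% of all rat spots and 7 of the 23 spots of the group. The 7 were the spots of Vip, Ucn, Adcyap1r1 probe 1 and Crhr2 probe 1 and 3 of the repeated Crh probe. The 127 measured spots of any brightness within 6 rows and 6 columns of the Vip spot had a median of 0.024. From 5% to 95%, they lay between -0.17 and 0.34. The part of position on the array in the Vip value was not tested.

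CRH was measured on 2 probes that gave different sizes. The single-spot Crh probe (chr2:104764051-104764110, -) had a signal of 377 ± 37.8 in the female and 375 ± 37.7 in the male pool, a difference of 0.034. The repeated probe (chr2:104764253-104764312, -) had 83.9 to 102 in the female pool, with a mean of 93.4 ± 6.44, against 70.0 to 85.4 in the male pool, with a mean of 77.9 ± 5.12 (SD over 9 spots). All 9 spots were brighter on the female array, and the ranges of the arrays overlapped. The mean difference was 0.29 ± 0.13 (SD over 9 spots), with single spots from 0.14 to 0.51.

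The repeated Crh spots show how far a direction seen in every spot can be read. Of 1324 repeated probes of all brightness classes with at least 5 usable spots, 21.5% were brighter on the female array in every spot. A mean difference at least as high as that of Crh was found in 1.06% of the 1324. Of 4685 single-spot probes in the brightness class of this Crh probe, 7.71% lay as far to the female side, each on 1 spot. The 2 spots inside the bands averaged 0.50 and the 7 outside averaged 0.23. A further spot had an outlier flag on the male array, with signals of 91.9 in the female and 300.6 in the male pool, and with it included the mean of all 10 spots was 0.091. The Crh gene value, the median of both probes, was 0.16, or 0.062 with the flagged spot kept and 0.081 with normexp background correction.

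**Figure D2:**
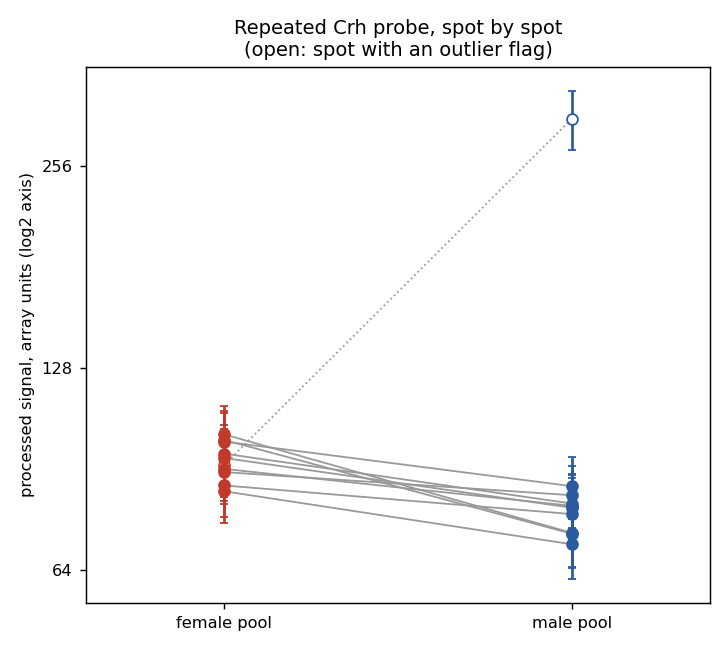
Processed signal of each of the 10 spots of the repeated Crh probe in the female and the male pool (log2 axis), joined by a line for each position, with Feature Extraction's error as bars. The 9 filled spots lie between 83.9 and 102 in the female pool and between 70.0 and 85.4 in the male pool, and the open symbol at 300.6 is the spot with an outlier flag on the male array.

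Urocortin 1 differed little. Ucn had 101.8 ± 10.4 in the female and 105.9 ± 10.99 in the male pool, a difference of -0.031, which is 0.20 spot SDs. Together the 4 ligands had a median of -0.13, with 1 higher in the female and 3 in the male pool. Of the other urocortins, which bind CRHR2, Ucn2 differed by 0.0089 and Ucn3 was not well above background on both arrays.

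The PACAP-selective receptor was measured by 3 probes, all lower in the female pool. Adcyap1r1 probe 1 (chr4:84254805-84254864, +) had 192 ± 19.4 in the female and 235 ± 23.9 in the male pool, a difference of -0.27. Probe 2 (chr4:84254446-84254505, +) had 92.1 ± 9.47 in the female and 109 ± 11.3 in the male pool, a difference of -0.22. Probe 3 had 288 ± 28.9 in the female and 312 ± 31.3 in the male pool, a difference of -0.090. The 3 probes lie close together in the same gene and share the pooled RNA, so they repeat the measurement and are not separate samples. Each difference was between 1.01 and 1.77 spot SDs, and the gene value was -0.22, with probe 3 alone, the brightest, at -0.090.

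The VIP receptors stood close to equality. Vipr1, the VPAC1 receptor, had 161 ± 16.2 in the female and 154 ± 15.7 in the male pool, a difference of 0.086. Vipr2, the VPAC2 receptor, had 812 ± 81.2 in the female and 863 ± 86.4 in the male pool, a difference of -0.063. Both differences were smaller than 1 spot SD, at 0.57 and 0.70 of it. The 5 genes of the PACAP and VIP system had a median of -0.22, with 1 higher in the female pool.

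The CRH receptors were dim and lay on opposite sides of 0 by small amounts. Crhr1, the receptor that CRH prefers, had 39.0 ± 4.70 in the female and 32.9 ± 4.88 in the male pool. Its difference of 0.27 was the largest to the female side, equal to 0.99 spot SDs and 0.97 times the Feature Extraction error, and it was 0.063 with normexp background correction. Crhr2, the receptor shared by the urocortins, had 77.5 ± 8.08 in the female and 80.6 ± 8.67 in the male pool on probe 1. On probe 2 (chr4:83839822-83839859, -) it had 102.01 ± 10.5 in the female and 119.95 ± 12.4 in the male pool. The probes differed by -0.032 and -0.21, the gene value was -0.12 (-0.21 without the bands, where probe 2 alone is left), and the 5 receptors of both systems had a median of -0.063.

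**Figure D3:**
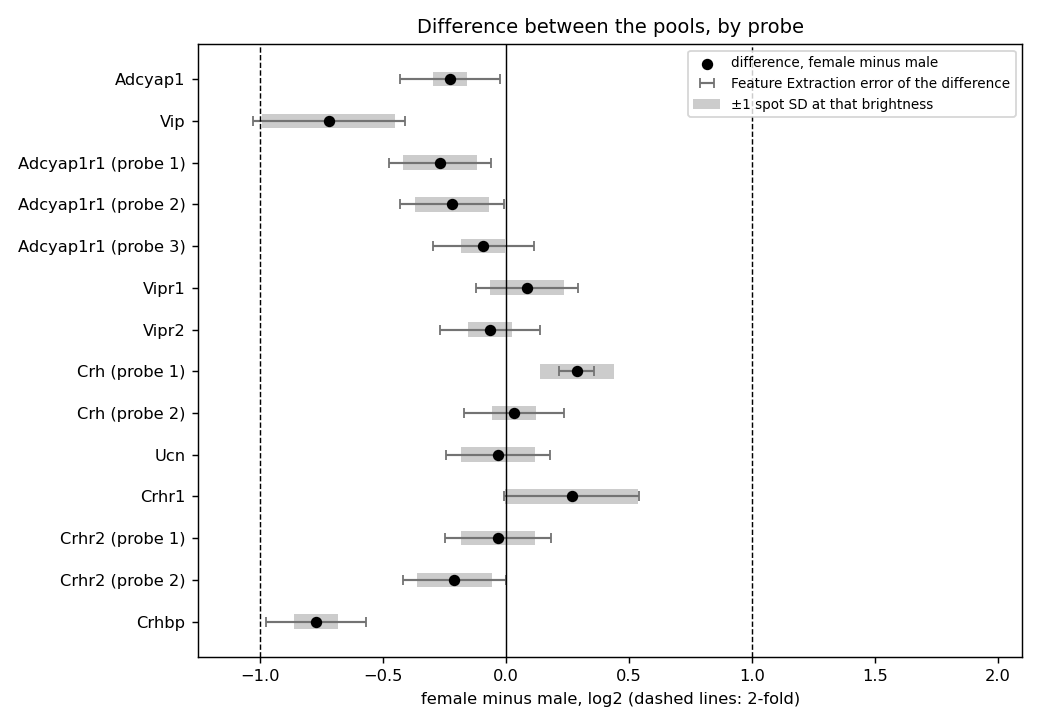
Difference between the pools for each probe (x axis, female minus male, log2), with Feature Extraction's error of the difference as thin bars and 1 spot SD of the brightness class as grey bars. For Crh probe 1 the point is the mean of 9 spots and the grey bar still refers to 1 spot. The bars of Crhbp at -0.77 and Vip at -0.72 end farthest from 0.

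In order from the most male to the most female, the gene differences ran Crhbp, Vip, Adcyap1, Adcyap1r1, Crhr2, Vipr2, Ucn, Vipr1, Crh and Crhr1. Every pair of neighbours in this order lay within the larger spot SD of the pair, except Vip and Adcyap1, which were 0.49 apart against an SD of 0.27. Vipr1, Vipr2, Ucn and Crhr1, 4 of the 10 genes, lay within 1 spot SD of 0 on every probe. In the CRH system the binding protein stood apart from the ligands and receptors, whose differences lay between -0.12 and 0.27.

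**Figure D4:**
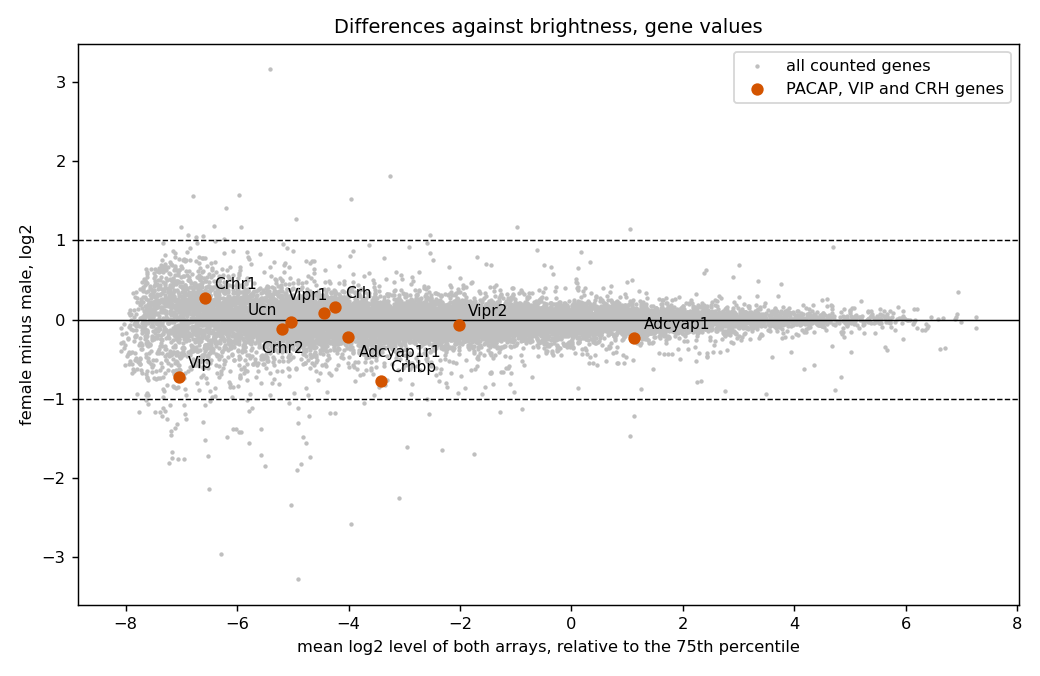
Difference between the pools (y axis, female minus male, log2) against the mean level of both arrays relative to the 75th percentile (x axis, log2) for 15560 genes in grey and the 10 PACAP, VIP and CRH genes in orange. Dashed lines mark 2-fold, and all 10 lie between them, with Crhbp at -0.77 and Vip at -0.72 the lowest.

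Genes that act downstream of these receptors were also read. G protein subunits and adenylyl cyclases, which make cAMP, had 11 measured genes, 7 higher in the female and 4 in the male pool, none at 2-fold, with a median of 0.011. The largest in this list were the olfactory-type stimulatory subunit Gnal at 0.16, the cyclase Adcy6 at -0.10 and Gnaq at -0.081. The cAMP effectors, 4 higher in the female and 3 in the male pool with a median of 0.014, held 1 wider value, Prkar2a, a regulatory subunit of protein kinase A, at -0.75 on 1 spot. Prkar1a, another regulatory subunit, differed by -0.12 and the catalytic subunit Prkaca by 0.11. Receptor desensitisation genes, 2 higher in the female and 4 in the male pool with a median of -0.064, were led by the kinases Grk5 at 0.21 and Grk6 at -0.11 and the arrestin Arrb2 at 0.092.

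Genes of the CREB pathway and those that cAMP is known to induce lay mostly on the male side. Of 12 measured, 1 was higher in the female and 11 in the male pool, none at 2-fold, and the median was -0.14 against -0.014 over all genes. The clock gene Per1 differed by -0.40, the orphan nuclear receptor gene Nr4a1 by -0.34 over 10 spots, and the immediate early gene Fos by -0.32. Under spike-in scaling the median of this list was 0.53, against 0.66 over all genes.

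No gene of peptide handling reached 2-fold. Of 12 propeptide processing and dense-core granule genes, 4 were higher in the female and 8 in the male pool, with a median of -0.032. They were led by Pam at -0.45, the enzyme that amidates the C-terminus of peptides such as PACAP, VIP and CRH. In the same list Cadps2, a priming factor for dense-core granules, differed by 0.35 and the granule protein gene Chgb by -0.22. Peptide breakdown genes, 2 higher in each pool with a median of 0.019, held Mme at 0.18, Ace at 0.12 and Anpep at -0.20. Receptor activity-modifying proteins, 2 higher in the female and 1 in the male pool with a median of 0.019, held Ramp1 at 0.032, Ramp2 at 0.019 and Ramp3 at -0.15.

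Other secretin-family peptides and receptors showed no 2-fold difference. Of 12 measured, 4 were higher in the female and 8 in the male pool, with a median of -0.061 against -0.014 over all genes. The parathyroid hormone receptor genes Pth1r and Pth2r differed by -0.30 and -0.28, and the glucagon receptor gene Gcgr by 0.27. The glucocorticoid list, in which CRH stands at the top of the hormonal axis, had 10 measured genes, 6 higher in the female and 4 in the male pool, none at 2-fold, with a median of 0.12, or 0.050 with the brightest probe of each gene. Nr3c2, the mineralocorticoid receptor gene, led it at 0.44, but its 2 probes gave 0.013 and 0.87. The glucocorticoid-induced gene Tsc22d3 differed by 0.20 and Pomc, the precursor of ACTH, by 0.18.

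**Figure D5:**
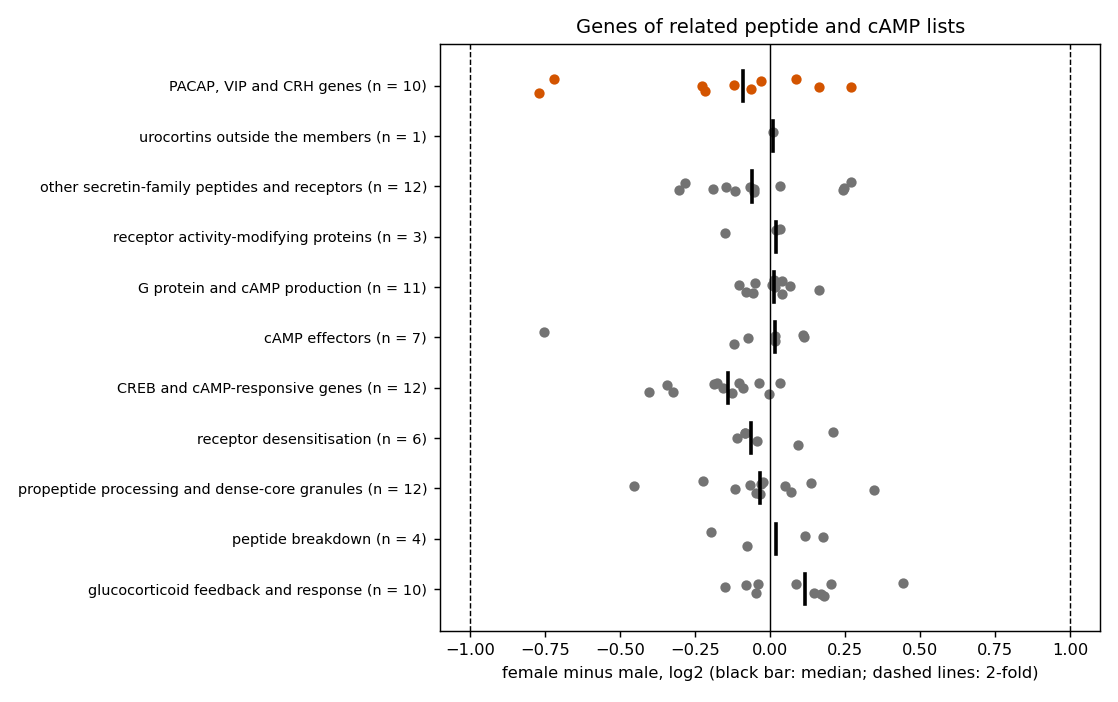
Difference between the pools (x axis, female minus male, log2) for each measured gene of the PACAP, VIP and CRH group (orange) and of 10 lists of related genes (grey), with the median as a black bar and 2-fold as dashed lines. No gene reaches 2-fold, and the list medians lie between -0.14 and 0.12.

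The dissected tissue carried the markers of its label. NTS neuron genes were measured for 16 of 18, with a median of -0.037. Tyrosine hydroxylase (Th) and dopamine beta-hydroxylase (Dbh), enzymes of the catecholamine neurons of the region, lay at 3.83 and 3.28 in the female pool and at 3.80 and 3.34 in the male pool, in log2 above the 75th percentile. The largest differences of the list were Prlh at 0.62, Slc6a5 at 0.27 and Lmx1b at 0.23. General neuron genes had a median of -0.0088, and those of motor and vagal motor neurons -0.078, of the area postrema -0.054, of the cerebellum 0.020, of ependyma -0.11 and of the hypothalamus 0.056, none with a gene at 2-fold.

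Markers of tissue at the edge of the dissection and of blood were higher in the male pool, the side on which 7 of the 10 genes lay. Of all 15560 genes, 45.7% were on the female side. All 12 meningeal and fibroblast genes were higher in the male pool, with a median of -0.34 and a summed level of 10.2 in the female and 15.9 in the male pool, in multiples of the 75th percentile. Of 15 choroid plexus genes, 12 were higher in the male pool, with a median of -0.21, summed levels of 16.2 and 18.6 in the female and the male pool, and 1 gene past 2-fold, Cldn2 at -1.84. All 5 red blood cell genes were higher in the male pool, with a median of -0.55 and sums of 30.3 in the female and 40.5 in the male pool. White blood cell genes had a median of -0.44 over 11, with 10 higher in the male pool, sums of 0.397 and 0.578 in the female and the male pool, and 1 past 2-fold, Ltf at -2.14. The sums are of unlogged levels, so the brightest genes of a list weigh most. These were Col1a2 at -0.90 on 1 spot for meninges and fibroblasts, Ttr at -0.21 for the choroid plexus and Hbb at -0.41 for red cells. Cldn2 and Ltf each rest on 1 dim spot. In log2 relative to the 75th percentile, Cldn2 lay at -6.43 in the female and -4.58 in the male pool. Ltf lay at -7.57 in the female and -5.43 in the male pool. Without the bands of array rows, the choroid plexus median was -0.16 over the 9 genes left. The white cell median was -0.21 without the bands and -0.24 with normexp background correction. Epb42 of the red cell list and Cd3e of the white cell list were not well above background on both arrays. The part of these markers in the values of the 10 genes was not tested.

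Markers of cells inside the tissue had medians of smaller size in the main setting. Of 11 endothelial genes 10 were higher in the female pool (median 0.15), as were 8 of 10 oligodendrocyte genes, with a median of 0.13. With normexp background correction the endothelial median was 0.042, and it was 0.071 when each gene took its brightest probe. Without the bands the endothelial median was 0.21 over the 7 genes left, and the oligodendrocyte median was 0.19 over 8. Both were then larger in size than the choroid plexus median of -0.16 in that setting. Astrocyte genes had a median of -0.033, microglia and macrophage genes -0.11, and pericyte and smooth muscle genes -0.053. None of these lists held a gene at 2-fold.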

How the data were processed

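Total RNA of the NTS from 5 female and 5 male rats was pooled by sex, and 150 ng of each pool was labelled with Cy3 and hybridised to 1 array, per the labels' protocols. The deposited intensity values are single-colour signals from Agilent Feature Extraction 10.7.3.1, per the file headers, whereas the submitters' processing notes name version 9.1. Per the file headers, background subtraction and spatial detrending had been applied to the processed signal but no scaling between arrays, and probe positions are on rn4. A deposited table of intensity values equals the processed signal times 1 factor per array, and it served as an alternative.

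From the log2 processed signal each array's 75th percentile over 42877 rat spots was subtracted. Outlier flags on either array removed 430 spots, and spots of a probe were averaged. Counted probes had most of their spots well above background on each of the arrays (24530 probes, 15560 genes), and genes were given the median over counted probes. Well above background were 87.9% of female and 85.5% of male spots. Precision is limited by the number of arrays. Symbols came through the first accession and the GRCr8 reference table for 18750 probes, through another accession for 1035 and from the array files for 2879, and 7703 had none. With 1 array per sex no test was made and a call is a difference of 2-fold or more.

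The 10 genes, the lists and the alternatives were chosen with earlier results of these data known. From each list, up to 3 genes with the largest difference and any gene at 2-fold were named. Steps were tested on simulated data. Python 3.11.15, pandas 2.3.3, numpy 2.4.6, matplotlib 3.10.9 and, for normexp (offset 50) and quantile normalization, limma 3.58.1 in R 4.3.3 were used.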

Additional observations from a re-analysis of the deposited data

How the results depend on the processing

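None of the 10 genes passed 2-fold under any of the 13 alternatives of scaling, filter, flag, probe and position. None passed 3-fold in the main setting, and 2 passed 1.5-fold. Several alternatives could not move these genes. All 23 spots were well above background, so the looser background filters returned the same values. The deposited table is the same signal times 1 factor per array. The choice of probe could move only Adcyap1r1, Crh and Crhr2, and the flagged spot only Crh. The median of the 10, -0.091, was 0.58 under spike-in scaling, which rests on 234 spots and shifts all genes alike, and stayed below 0 under the others. The number of all genes at 2-fold, 83 in the main setting, was 598 under spike-in scaling, 23 with normexp, 370 where background had to be passed on only 1 array, 711 with no background filter, 13 with probes brighter than the median probe and 47 without the bands. It was 384 at 1.5-fold and 22 at 3-fold. The offset of 50 units used with normexp by itself shrinks differences of dim spots. The normexp values thus do not isolate the background correction. The counts higher in the female and the male pool, 17 and 66, became 581 and 17 under spike-in scaling, 212 and 158 where 1 array sufficed and 436 and 275 with no filter. Apart from spike-in scaling, Crhbp ranged from -0.77 to -0.64, Vip from -0.81 to -0.22, Crhr1 from 0.063 to 0.30 and Crh from 0.034 to 0.20, and of the 10 genes Ucn alone changed sign, to 0.0040 when scaled by the median. The medians of the lists of receptor activity-modifying proteins, propeptide processing, peptide breakdown, pericytes, astrocytes, neurons and cerebellum changed sign under at least 1 alternative other than spike-in scaling, and those of the remaining lists did not. Vip and Ucn had no value without the bands, and the filter at the median probe kept 3 of the 10 genes. The number of arrays limits the precision, and the dimmest probes, Vip and Crhr1, most. No paired analysis was possible because each sex has 1 array.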
